A study of Mus musculus with 12 samples.

Results

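The genes described here are 9 lysosomal cathepsins (Ctsa, Ctsb, Ctsc, Ctsd, Ctsf, Ctsh, Ctsl, Ctss and Ctsz) and the cathepsin inhibitor cystatin C (Cst3), 10 genes out of 54532 in the count table. They were taken by symbol, and each matched 1 Ensembl identifier. RNA was sequenced from bone marrow-derived macrophages, cultured from precursor cells of mouse marrow, in 4 groups of 3 libraries. The groups were untreated control cells (WT), untreated cells carrying Gpnmb R150X (called R150X here), and cells of each genotype treated with oxidised low-density lipoprotein (OxLDL). R150X is a premature stop codon that DBA/2J mice carry naturally, and GPNMB is a transmembrane glycoprotein of lipid-laden macrophages. Both genotypes came from a DBA/2 and C57BL/6 cross that had been backcrossed to C57BL/6. Zygosity, age, OxLDL dose, length of treatment and the source of a group's 3 libraries (mouse, culture or pool) are not given in the sources used here. All p-values therefore measure the spread between these libraries, which may be technical. The study asked how GPNMB affects the formation of foam cells, the lipid-filled macrophages of atherosclerotic plaques.

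Cathepsins are the proteases that break down protein in the acidic lysosome. They are made as inactive precursors, carried from the Golgi largely by mannose 6-phosphate receptors, and activated by cleavage at low pH. Most are cysteine proteases, cathepsin D is an aspartic protease, and cathepsin A is a serine carboxypeptidase. In macrophages they digest phagocytosed material and lipoprotein, cathepsin S trims the invariant chain from MHC class II, and secreted forms cut matrix. Cystatin C is a small secreted protein that blocks cysteine cathepsins. Many lysosomal genes carry an E-box with the letters CACGTG near their start, through which the MiT/TFE transcription factors act in the network called CLEAR.

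Promoter sequences are shown for 5 members because several cathepsins moved together and 1, Ctsc, moved the other way. RefSeq promoters of build GRCm38.p6, from 250 bases before to 50 bases after a start site, had entries for 8 of the 10 members. Ctsb and Ctsh had no entry. The E-box CACGTG, which reads the same on both strands, was found in Ctsa, Ctsd, Ctsf and Ctsl, that is in 4 of 8 members, and in 7.15% of all 32851 promoters. Its form flanked by T and A, TCACGTGA, which contains the E-box, was found in Ctsa and Ctsd and in 0.974% of all promoters. The related M-box TCATGTG, searched on both strands, was found in Ctsa and Ctss and in 3.77% of all promoters. Members were counted by gene, with a match in any entry, while the percentages count single promoters. The first of the 2 entries for Ctsa held none of these letters. Ctsc, Ctsz and Cst3 held none of them in this window. Ctss, Ctsz and Cst3 lacked the E-box as Ctsc did, but OxLDL raised them in WT cells, as given below. In R150X cells their log2 changes with OxLDL were -0.09, -0.14 and -0.26, and that of Ctsc was -1.44. Members with an E-box rose in R150X cells too, Ctsa by 0.45, Ctsd by 0.72, Ctsf by 0.47 and Ctsl by 0.46. A match is a description of the sequence and not evidence of binding, and a link between the E-box and the direction of change was not tested. The stretches below run 5′ to 3′ on the gene's own strand, and capitals mark the E-box. For Ctsd (chr7:142387828-142388077, minus strand) and Ctsc (chr7:88277835-88278084, plus strand) the 250 bases before the start site are given. For Ctsa (chr2:164833523-164833802, plus strand), the second of its 2 listed start sites is shown with 30 bases after it. For Ctsl (chr13:64370741-64370766, minus strand) and Ctsf (chr19:4855076-4855101, plus strand) the E-box is shown with 10 bases on each side.
Ctsd: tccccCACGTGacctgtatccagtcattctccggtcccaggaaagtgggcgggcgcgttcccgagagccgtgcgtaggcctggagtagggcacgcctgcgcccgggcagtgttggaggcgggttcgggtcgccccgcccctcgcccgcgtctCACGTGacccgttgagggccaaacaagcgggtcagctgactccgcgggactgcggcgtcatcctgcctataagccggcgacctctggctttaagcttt
Ctsa: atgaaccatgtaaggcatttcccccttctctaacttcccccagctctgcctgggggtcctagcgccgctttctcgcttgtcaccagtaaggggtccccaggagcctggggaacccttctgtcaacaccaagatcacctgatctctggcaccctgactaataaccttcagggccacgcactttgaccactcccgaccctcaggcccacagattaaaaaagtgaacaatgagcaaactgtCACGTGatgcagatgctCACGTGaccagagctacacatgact
Ctsl: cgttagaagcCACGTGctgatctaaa
Ctsf: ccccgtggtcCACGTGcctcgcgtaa
Ctsc: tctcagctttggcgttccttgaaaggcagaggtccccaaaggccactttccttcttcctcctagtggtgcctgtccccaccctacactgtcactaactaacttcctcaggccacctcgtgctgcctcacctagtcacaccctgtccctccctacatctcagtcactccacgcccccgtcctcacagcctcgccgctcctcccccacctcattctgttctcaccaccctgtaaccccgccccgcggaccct
In Ctsd the E-boxes began at positions -245 and -98 from the start site, in Ctsa at -12 and 6, in Ctsf at -79 and in Ctsl at -236.

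Total counts ran from 14838969 to 18222868 per library, and the members' own counts from 348 (Ctsf) to 296887 (Ctsb). Ctsf, at 348 to 562 counts, had the largest standard errors of the members in every comparison. Replicate 1 of the untreated R150X group stood apart from replicates 2 and 3, with chi-square values per degree of freedom of 9.23 and 10.1 against 2.31 to 4.76 for the other pairs of replicates, and values without it are given below. Gpnmb itself averaged 5330 CPM (counts scaled to library size with a trimmed mean of M-values) in untreated WT and 385 CPM in untreated R150X cells, and 12508 and 706 CPM with OxLDL. Xist, an RNA of female cells, was at 228 to 349 CPM in R150X libraries of both states. Every untreated WT library held some Xist (0.59 to 2.75 CPM), while with OxLDL no WT library exceeded 0.0695 CPM. No member lies on a sex chromosome. The allele and the genotypes' difference in sex composition cannot be told apart in any comparison of genotypes. Whether treated and untreated libraries were prepared together is not given in the sources used here. Any difference in preparation would be part of each OxLDL response, and this was not tested. Macrophage markers were detected in every group, with summed levels of 20753 to 26509 CPM for 9 genes. Most of this sum was Lyz2, at 13990 CPM in untreated and 19831 CPM in OxLDL-treated WT cells. With OxLDL in WT, Cd68 rose from 717 to 1241 CPM, while Adgre1 fell from 2727 to 833 CPM and Fcgr1 from 239 to 105. The calls in each direction are given below with the other cell markers.

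Together the 10 genes held 2.36% ± 0.00983 of all counts in untreated WT cells (SD, n = 3) and 2.97% ± 0.108 in untreated R150X cells. With OxLDL they held 3.65% ± 0.0664 in WT and 3.86% ± 0.0363 in R150X. Ctsb ranked 2 to 4 by CPM among the 15338 genes tested in the 4 groups, and Ctsd ranked 6 to 13. To compare genes, CPM was divided by the length of a coding transcript. In untreated WT cells Ctss stood highest at 2619 ± 43.5 CPM per kilobase, then Ctsd at 2077 ± 25.8 and Ctsb at 1984 ± 11.5. Ctsl followed at 942 ± 26.3 CPM per kilobase, Ctsz at 664 ± 11.3, Cst3 at 620.5 ± 18.8, Ctsa at 343 ± 3.21, Ctsc at 215 ± 3.49, Ctsh at 178 ± 5.25 and Ctsf at 10.7 ± 1.46. The ranges of neighbours in this order did not overlap. In untreated R150X cells the order was the same except that Ctsh and Ctsc overlapped, as did Ctsl with Ctsz and Ctsz with Cst3. With OxLDL, Ctsd led in both genotypes, at 4394 ± 150.2 CPM per kilobase in WT and 5039 ± 111 in R150X, and Ctsc fell to 92.0 ± 2.10 and 70.2 ± 0.0844. Ctsd made up 21.5% of the members' summed level per kilobase in untreated WT cells and 31.3% in OxLDL-treated R150X cells, while Ctss made up 27.1% and 21.5%. The place of a gene in this order depends on the transcript length chosen. With the merged exons of all transcripts, an alternative length, Ctsl moved from the fourth to the sixth place in all 4 groups.

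**Figure D1:**
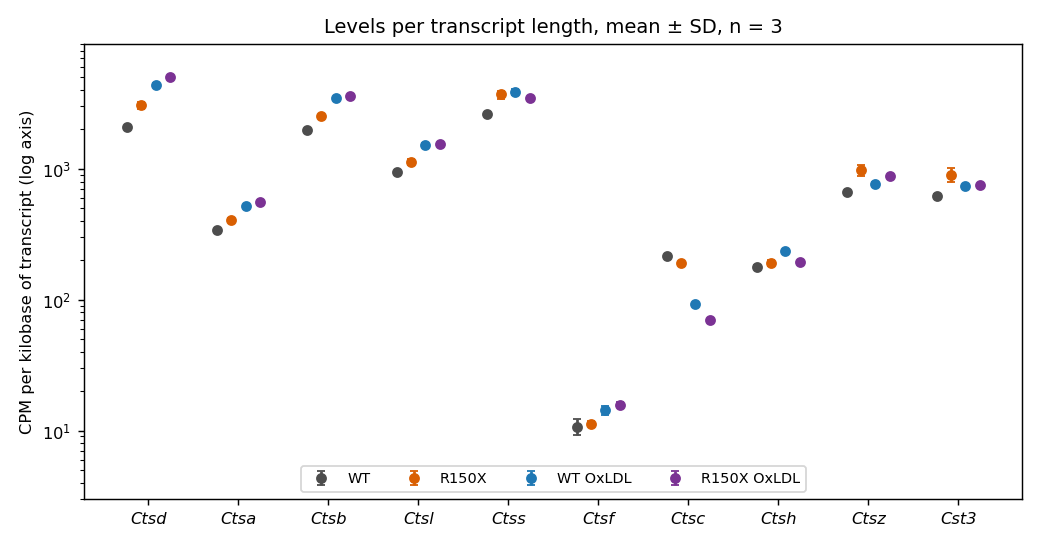
Level of each member in CPM per kilobase of coding transcript on a log axis, as mean ± SD of 3 libraries in each of the 4 groups. Ctss leads in untreated cells, Ctsd leads with OxLDL, and Ctsf lies lowest in all groups.

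The comparisons were R150X against WT without and with OxLDL, the OxLDL response in each genotype, and the difference between the responses. All used edgeR's quasi-likelihood test over 12 libraries, and a gene was called at p under 0.05 after Benjamini-Hochberg adjustment across the table. OxLDL raised 9 of 10 members in WT cells and lowered 1, Ctsc, where 45.8% of all genes were called (22.7% higher and 23.1% lower). In R150X cells OxLDL raised 5 and lowered 3, where 39.0% of all genes were called (18.4% higher and 20.6% lower). In untreated cells 7 members were higher in R150X and 1 was lower, against 33.0% of all genes called (18.1% higher and 14.8% lower). With OxLDL 2 were higher in R150X and 3 were lower, against 13.0% of all genes called (6.10% higher and 6.92% lower). The OxLDL response was smaller or more negative in R150X for 8 members and larger for 0, against 8.32% of all genes called (5.19% lower and 3.13% higher). By DESeq2 these counts for the response were also 8 and 0. Ctsf, the only member with a positive difference, had an unadjusted p of 0.703 in edgeR's test.

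The median log2 change of the members was 0.49 for OxLDL in WT and 0.23 in R150X, against 0.01 and 0.00 over all genes. It was 0.31 for R150X against WT in untreated cells and 0.04 with OxLDL, against 0.01 and 0.00, and -0.32 for the difference between responses, against -0.02. Abundant genes were called more often than others. Among the 2096 genes that averaged 100 CPM or more, as every member except Ctsf did, 54.5% were called between untreated genotypes (39.6% higher and 14.9% lower). Between treated genotypes 24% were called (13.6% higher and 10.4% lower). For OxLDL 67.7% were called in WT (41.8% higher and 26% lower) and 62.2% in R150X (33.3% higher and 28.9% lower). Different responses were called for 23.5% (5.44% higher and 18.1% lower). The 3 libraries of each group did not overlap between untreated genotypes for 8 members, as for 46.1% of all genes, and between OxLDL-treated genotypes for 7 members, as for 30.0%. Treated and untreated libraries did not overlap for any of the 10 members in WT, as for 55.9% of all genes, and for 9 members in R150X, as for 46.4%. The comparisons share groups, so their counts are not independent of each other.

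**Figure D2:**
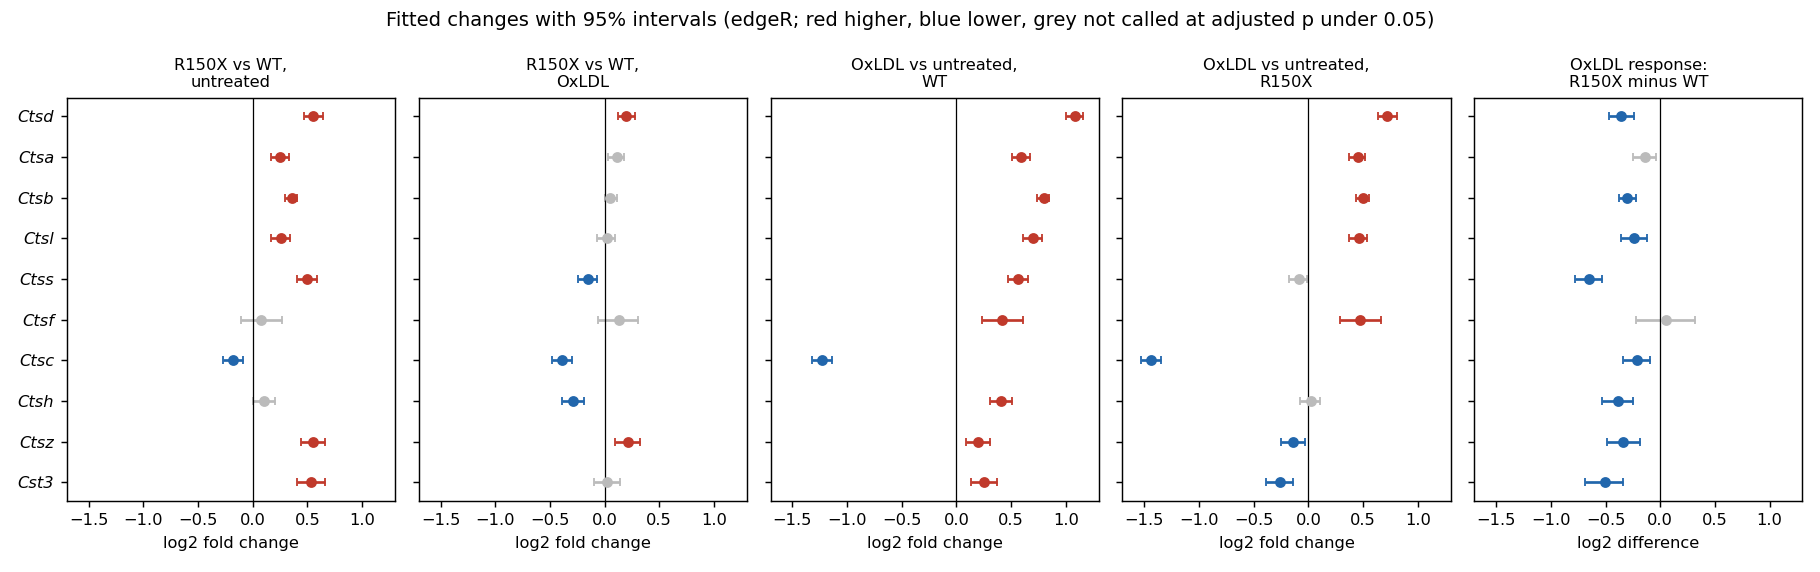
Log2 fold change of each member with its 95% interval in the 5 comparisons, coloured by whether it was called higher, lower or neither. OxLDL in WT raised all members but Ctsc, and 8 of 10 members lie below 0 and were called in the difference between responses.

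Cathepsin D (Ctsd, chromosome 7, 142375911 to 142388038, minus strand, GRCm38), the aspartic protease of the lysosome, responded most strongly among the members that OxLDL raised. The 3 untreated WT libraries held 4356, 4440 and 4459 CPM and the untreated R150X libraries 6994, 6214 and 6264 CPM. With OxLDL the WT libraries held 9484, 8982 and 9575 CPM and the R150X libraries 10985, 10633 and 10534 CPM. The 4 groups did not overlap, and each OxLDL-treated library exceeded every untreated one. OxLDL raised Ctsd by a log2 fold change of 1.08 in WT (SE 0.0399, adjusted p = 2.48e-15) and by 0.72 in R150X (SE 0.0397, adjusted p = 2.23e-12). R150X exceeded WT by 0.55 in untreated cells (adjusted p = 1.16e-09) and by 0.20 with OxLDL (adjusted p = 0.00144). A same-strand gene model, Gm49369, covers 34.4% of the exon bases of Ctsd and was listed at 0 counts in every library. How shared exons were counted is not given in the sources used here.

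Cathepsin A (Ctsa, chromosome 2, 164832873 to 164841032, plus strand) is a carboxypeptidase that also protects the hydrolases NEU1 and GLB1 in a complex. It stood at 869 ± 8.13 CPM in untreated WT (SD, n = 3) and 1034 ± 30.9 CPM in untreated R150X cells, and at 1308 ± 16.3 and 1409 ± 6.90 CPM with OxLDL. OxLDL raised it by 0.59 in WT (adjusted p = 1.82e-11) and 0.45 in R150X (adjusted p = 2.20e-09). R150X was higher by 0.25 in untreated cells (adjusted p = 2.39e-05). With OxLDL the libraries of the 2 genotypes did not overlap, but the difference of 0.11 did not pass (adjusted p = 0.0592) and passed with DESeq2 (adjusted p = 0.0258). Ctsa shares 10.5% of its exon bases with Pltp on the opposite strand. Pltp went the other way between genotypes, at 457 CPM in untreated WT and 369 CPM in untreated R150X cells, and at 605 and 395 CPM with OxLDL. Without a stated strand setting, reads from the shared stretch cannot be told apart. The partners Neu1 and Glb1 were also higher in untreated R150X cells, by 0.39 (adjusted p = 4.52e-06) and 0.15 (adjusted p = 0.0204), and OxLDL raised both in each genotype.

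**Figure D3:**
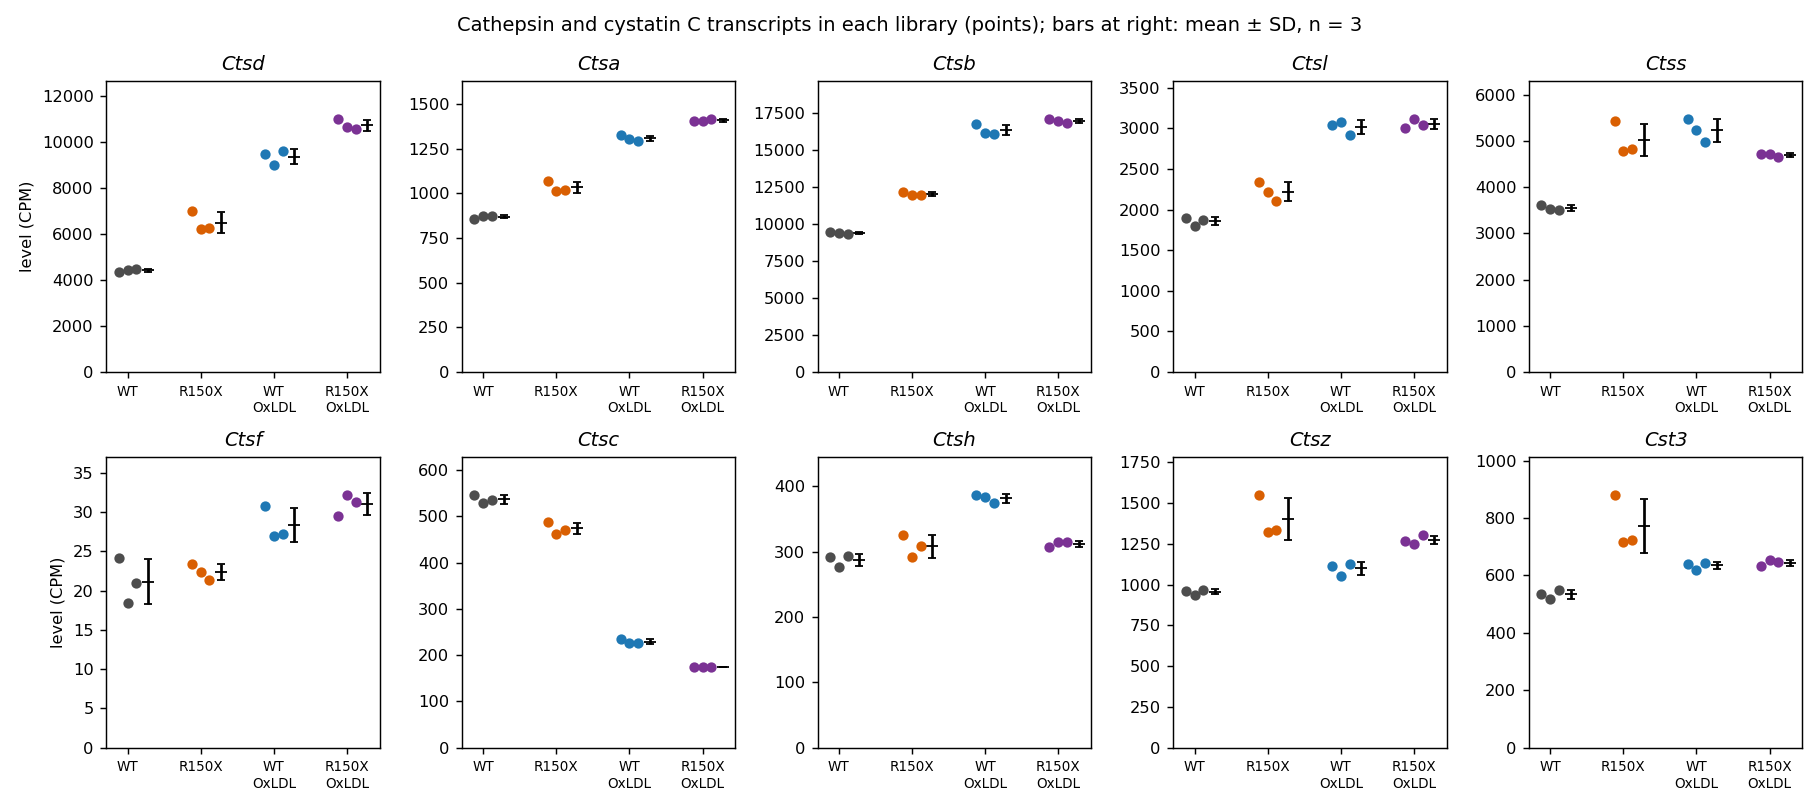
CPM of each member in each of the 12 libraries on linear axes that start at 0, with the mean ± SD of each group beside its points. Untreated R150X replicate 1, the leftmost point of its group, is the highest of the 3 for every member.

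Among the cysteine endopeptidases, cathepsins B and L followed the course of Ctsd, and cathepsin S did not. Ctsb (chromosome 14, 63122462 to 63145923, plus strand) can also remove dipeptides from the ends of proteins. It held 9466, 9405 and 9357 CPM in untreated WT and 12180, 11967 and 11995 CPM in untreated R150X libraries. With OxLDL it held 16763, 16179 and 16132 CPM in WT and 17121, 16986 and 16870 CPM in R150X libraries. Each R150X library lay above each WT library in both states, by a wider margin before treatment. The untreated difference was 0.36 (SE 0.0261, adjusted p = 1.78e-09), and with OxLDL it was 0.05 (95% interval 0.00 to 0.11, adjusted p = 0.194). OxLDL raised Ctsb by 0.80 in WT (adjusted p = 3.51e-16) and 0.50 in R150X (adjusted p = 1.14e-12). Exons of Fdft1 overlap 12.8% of those of Ctsb on the opposite strand, but Fdft1 itself was at 8.18 to 35.6 CPM.

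Ctsl (chromosome 13, 64359337 to 64370890, minus strand), a potent endopeptidase and collagenase, was at 1901, 1800 and 1870 CPM in untreated WT and at 2344, 2219 and 2101 CPM in untreated R150X libraries. With OxLDL the WT libraries held 3041, 3082 and 2918 CPM and the R150X libraries 3003, 3115 and 3042 CPM. The genotypes were apart before treatment, at 0.26 (SE 0.0406, adjusted p = 5.17e-05), and overlapped after it, at 0.02 (95% interval -0.07 to 0.10, adjusted p = 0.829). OxLDL raised it by 0.70 in WT (adjusted p = 5.69e-12) and 0.46 in R150X (adjusted p = 6.83e-09). An antisense gene, Gm47123, covers 26.8% of the exon bases of Ctsl and was listed at 0 counts.

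Ctss (chromosome 3, 95526786 to 95556403, plus strand) works at near-neutral as well as acidic pH and completes the processing of the MHC class II invariant chain. Untreated WT libraries held 3616, 3528 and 3504 CPM and untreated R150X libraries 5423, 4791 and 4835 CPM. With OxLDL the WT libraries held 5475, 5235 and 4975 CPM and the R150X libraries 4726, 4721 and 4645 CPM. R150X was the higher genotype before treatment and the lower one after it, without overlap in either case. The log2 difference was 0.50 in untreated cells (SE 0.0430, adjusted p = 2.03e-08) and -0.15 with OxLDL (SE 0.0429, adjusted p = 0.0189). Leaving out a treated WT library ended this second call for replicate 1 (adjusted p = 0.119) and 2 (0.0636), as did leaving out treated R150X replicate 2 (0.0593) or 3 (0.0671). OxLDL raised Ctss by 0.56 in WT (adjusted p = 5.94e-10), while in R150X the value was -0.09 (95% interval -0.18 to -0.01, adjusted p = 0.0885). That value passed, as a fall, with library size alone (adjusted p = 0.0296), when low-count genes were kept (0.0315), with a replicate block (0.0247) and without untreated R150X replicate 2 (0.0355). Without untreated R150X replicate 1, the library that stood apart, it was -0.04 (adjusted p = 0.390).

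Of the chains that cathepsin S acts beside, Cd74 (the invariant chain) differed between genotypes in the same directions, by 1.17 in untreated cells (adjusted p = 6.25e-12) and -0.22 with OxLDL (adjusted p = 0.0238). It averaged 145 CPM in untreated WT and 326 CPM in untreated R150X cells, and 90.9 and 78.1 CPM with OxLDL. Of 7 genes of this group, which also holds the class II chains H2-Aa, H2-Ab1 and H2-Eb1 and the peptide loaders, 6 rose and 0 fell in untreated R150X cells. With OxLDL 0 were higher and 5 lower in R150X. Of all genes 18.1% were higher in untreated R150X cells and 6.92% were lower in R150X with OxLDL. Unlike Ctss, Cd74 fell with OxLDL in both genotypes, with log2 changes of -0.67 in WT (adjusted p = 9.95e-09) and -2.06 in R150X (adjusted p = 8.01e-17). Related H2 genes can share reads, so their single values are uncertain.

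Ctsf (chromosome 19, 4855130 to 4860918, plus strand), a less studied cathepsin with a long propeptide, was the rarest member. Its libraries ranged from 18.4 to 24.1 CPM in untreated WT, 21.4 to 23.4 in untreated R150X, 27.0 to 30.8 in OxLDL-treated WT and 29.5 to 32.2 in OxLDL-treated R150X cells. The genotypes overlapped in both states, at 0.08 (95% interval -0.11 to 0.27, adjusted p = 0.539) and 0.13 (-0.06 to 0.31, adjusted p = 0.403). OxLDL raised it by 0.42 in WT (SE 0.0911, adjusted p = 0.000653) and 0.47 in R150X (SE 0.0900, adjusted p = 0.000233). The responses differed by 0.05, with an interval of -0.22 to 0.32. That interval also holds a difference as large as the -0.21 called for Ctsc.

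The 3 exopeptidases differed from each other. Cathepsin C (Ctsc, chromosome 7, 88278085 to 88310888, plus strand) removes dipeptides from protein ends and activates the serine proteases of granules in neutrophils, mast cells and cytotoxic lymphocytes. It was the only member that fell with OxLDL in WT cells and the only one lower in untreated R150X cells. Its libraries held 547, 529 and 535 CPM in untreated WT and 488, 463 and 471 CPM in untreated R150X cells. With OxLDL they held 235, 227 and 226 CPM in WT and 175 CPM in each of the 3 R150X libraries. No 2 groups overlapped, and the order ran from untreated WT to OxLDL-treated R150X. The OxLDL response of Ctsc was -1.23 in WT (SE 0.0431, adjusted p = 1.00e-15) and -1.44 in R150X (SE 0.0435, adjusted p = 8.01e-17). The log2 difference of R150X from WT was -0.18 in untreated cells (adjusted p = 0.00245) and -0.39 with OxLDL (adjusted p = 1.41e-06).

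Neutrophil markers moved beside Ctsc. The summed level of 11 such genes was 556 to 588 CPM in untreated WT, 282 to 308 in untreated R150X, 129.8 to 147 in OxLDL-treated WT and 40.8 to 41.9 CPM in OxLDL-treated R150X libraries, the same order as Ctsc. All 9 that were tested were lower in R150X in both states, as were 14.8% of all genes without and 6.92% with OxLDL. None of the 11 was at 0 in any group, although the defining markers Ly6g and Retnlg averaged at most 0.357 and 0.130 CPM. The genes of this list did not all move together with OxLDL in WT, where 7 of the 9 tested fell, as did 23.1% of all genes. Mpo rose by 0.58 (adjusted p = 0.00833), while Elane was at 0.32 (adjusted p = 0.476). The sum rests mainly on S100a8, S100a9, Ngp, Ltf and Lcn2. The gene whose pattern over the 12 libraries was most like that of Ctsc was Lcn2, which is also in the marker list (Pearson r = 0.998). Lcn2 fell further with OxLDL in WT, from 139 to 10.8 CPM, than other granule genes. S100a8, S100a9, Ngp and Ltf went from 80, 127, 122 and 80.7 CPM to 24.2, 32.7, 35.8 and 25.6 CPM. Tmem176b and Ms4a6c came next, both at 0.997. The part of other cells in the level of Ctsc was not tested, and in bulk RNA fewer cells of a type and less RNA per cell cannot be told apart.

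Cathepsin H (Ctsh, chromosome 9, 90054152 to 90076089, plus strand), an aminopeptidase, rose with OxLDL in WT cells and was not called in R150X cells. It was at 292, 277 and 293 CPM in untreated WT and 326, 291 and 308 CPM in untreated R150X libraries, which overlapped. With OxLDL it was at 387, 383 and 374 CPM in WT and 307, 314 and 314 CPM in R150X libraries, which did not. OxLDL raised Ctsh by 0.41 in WT (SE 0.0476, adjusted p = 3.71e-07), while the value in R150X was 0.02 (95% interval -0.08 to 0.11, adjusted p = 0.828). With OxLDL the log2 difference of R150X from WT was -0.29 (adjusted p = 0.000188). In untreated cells the difference was 0.10 (adjusted p = 0.107), and it passed without R150X replicate 2, at 0.14 (adjusted p = 0.0358). It was 0.05 without R150X replicate 1 (adjusted p = 0.409) and 0.03 with library size alone (adjusted p = 0.707).

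Cathepsin Z (Ctsz, also called cathepsin X, chromosome 2, 174427493 to 174439039, minus strand) is a carboxypeptidase that also binds integrins. It was at 963, 939 and 969 CPM in untreated WT and 1552, 1322 and 1333 CPM in untreated R150X libraries. With OxLDL it was at 1116, 1056 and 1129 CPM in WT and 1268, 1250 and 1302 CPM in R150X libraries. R150X exceeded WT in both states without overlap, by 0.55 (adjusted p = 5.92e-08) and 0.21 (adjusted p = 0.00725). The second call was lost without OxLDL-treated WT replicate 2, at 0.18 (adjusted p = 0.0574). OxLDL raised Ctsz by 0.20 in WT (adjusted p = 0.00277), a call that was lost with library size alone, at 0.09 (adjusted p = 0.152). In R150X it fell by 0.14 (adjusted p = 0.0350), and this call was lost without untreated R150X replicate 1, at -0.06 (adjusted p = 0.173), and without OxLDL-treated R150X replicate 1 (adjusted p = 0.0862) or 2 (adjusted p = 0.120). It was also lost in a fit of only the 2 groups compared (adjusted p = 0.0822).

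Cystatin C (Cst3, chromosome 2, 148871722 to 148875692, minus strand) ran close to Ctsz, with which it correlated at 0.94 over the 12 libraries, but its genotypes met with OxLDL. Untreated WT libraries held 534, 517 and 549.8 CPM and untreated R150X libraries 881, 715 and 723 CPM. With OxLDL the WT libraries held 641, 619.9 and 644 CPM and the R150X libraries 631, 654 and 645 CPM. The genotypes were apart before treatment and overlapped after it. Cst3 was higher in untreated R150X cells by 0.53 (SE 0.0596, adjusted p = 7.00e-07), and by 0.42 without R150X replicate 1, its highest library (adjusted p = 6.15e-09). With OxLDL the difference was 0.02 (95% interval -0.10 to 0.14, adjusted p = 0.881). OxLDL raised Cst3 by 0.25 in WT (adjusted p = 0.00163), a call lost with library size alone at 0.14 (adjusted p = 0.0564). In R150X the change was -0.26 (adjusted p = 0.00121), and -0.16 without untreated R150X replicate 1 (adjusted p = 0.00116).

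The inhibitor was also set against its targets. On the scale of CPM per kilobase, the log2 ratio of Cst3 to the sum of the 7 cysteine cathepsins was -3.43, -3.44 and -3.36 in untreated WT and -3.17, -3.35 and -3.33 in untreated R150X libraries. With OxLDL it was -3.78, -3.78 and -3.69 in WT and -3.74, -3.69 and -3.69 in R150X libraries. Every OxLDL-treated library lay below every untreated one. The ratios are given as a description, without a test. Cystatin B (Cstb), the intracellular inhibitor of the same proteases, had ratios of -4.69 to -4.60 and -4.49 to -4.29 in untreated WT and R150X libraries. With OxLDL its ratios were -5.08 to -4.98 in WT and -4.83 to -4.57 in R150X libraries, so that the genotypes were apart in both states. Cstb itself was higher in R150X by 0.68 in untreated cells (adjusted p = 3.05e-07) and by 0.31 with OxLDL (adjusted p = 0.00454).

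**Figure D4:**
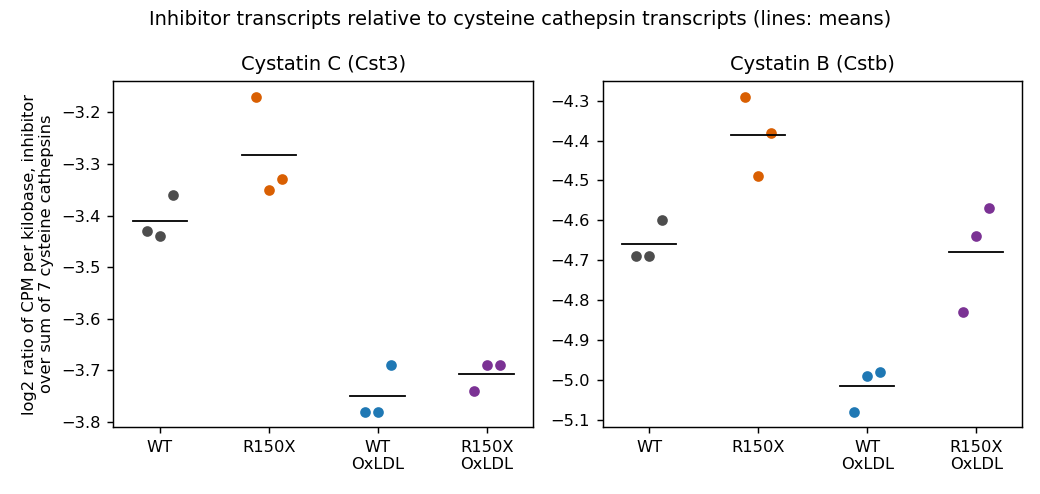
Log2 ratio of CPM per kilobase of each inhibitor to the summed 7 cysteine cathepsins in each library, with a line at each group's mean. OxLDL-treated libraries lie lowest for Cst3 in both genotypes, and for Cstb the R150X libraries lie above the WT libraries in each state.

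For 8 members the response to OxLDL itself differed between genotypes. Measured as the response of R150X minus that of WT, the difference was -0.65 for Ctss (SE 0.0608, adjusted p = 7.02e-07) and -0.51 for Cst3 (SE 0.0842, adjusted p = 0.000373). It was -0.39 for Ctsh, -0.36 for Ctsd, -0.34 for Ctsz and -0.30 for Ctsb, with adjusted p from 1.70e-05 to 0.00433. For Ctsl it was -0.24 (adjusted p = 0.0108), and this call was lost with library size alone, at -0.15 (adjusted p = 0.107). For Ctsc, whose fall was deeper in R150X, it was -0.21 (adjusted p = 0.0329). The call for Ctsc was lost without any 1 of the 3 untreated WT, the 3 OxLDL-treated R150X and the first 2 OxLDL-treated WT libraries, at adjusted p from 0.0550 to 0.0975. For Ctsa the difference of -0.14 (95% interval -0.25 to -0.04) did not pass (adjusted p = 0.0990). Without untreated R150X replicate 1 the same 8 members were called, with differences of -0.59 for Ctss, -0.40 for Cst3, -0.29 for Ctsd and -0.26 for Ctsz.

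**Figure D5:**
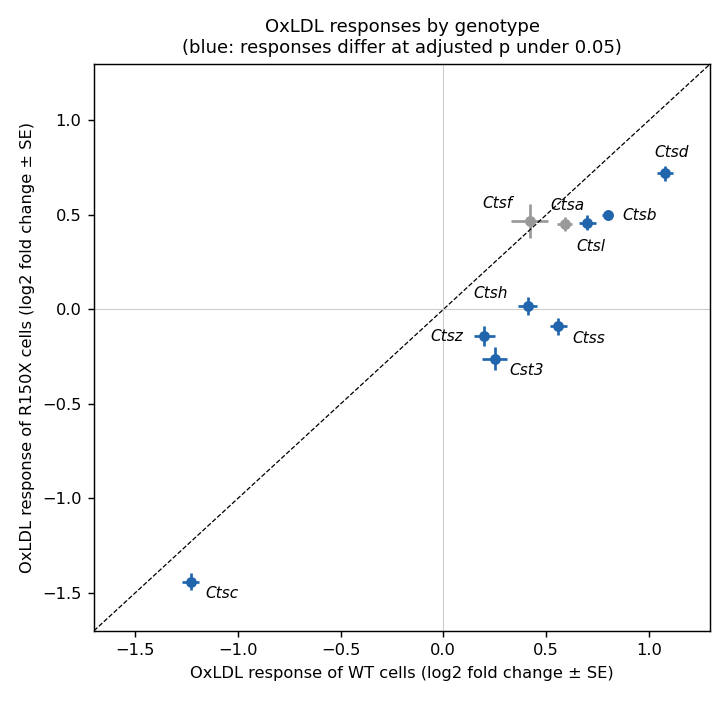
OxLDL response of each member in WT (horizontal) and in R150X cells (vertical) as log2 fold change ± SE, with a dashed line of equal response. All members but Ctsf lie below the line, and the values of Ctss, Ctsz and Cst3 are above 0 in WT and below 0 in R150X.

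By their course over the 12 libraries, the members fell into groups that can be described without a test, since 12 libraries in 4 groups mainly show the group means. The pairwise Pearson correlations of log2 CPM among Ctsa, Ctsb, Ctsd and Ctsl were 0.98 to 1.00, and Ctsz and Cst3 stood together as given above. Ctsc ran against Ctsa at -0.97 and against Ctsb at -0.95. Among genes that averaged 50 CPM or more, the pattern most like Ctsd was that of Psap (0.997), the precursor of the saposins, which bind cathepsin D in transit. Creg1, another lysosomal glycoprotein, was most like Ctsb (0.999), followed by the lipid droplet coat Plin2 (0.998) and the proton pump subunit Atp6v0d2 (0.996). Tmem50a was most like Ctss (0.989), Tmbim6 most like Ctsz (0.996), and Anxa2, an annexin, and Atox1, a copper chaperone, most like Cst3 (both 0.975). Card19 was most like Ctsa (0.996), St6galnac6 most like Ctsl (0.993), Fxyd5 most like Ctsh (0.948) and Idh2 most like Ctsf (0.983).

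Genes that process, carry or accompany cathepsins were mostly higher as well. Of 14, OxLDL raised 12 and lowered 0 in WT and raised 9 and lowered 1 in R150X, and 9 were higher and 0 lower in untreated R150X than in WT. Of all genes OxLDL raised 22.7% in WT and 18.4% in R150X, and 18.1% were higher in untreated R150X cells. Legumain (Lgmn), which cleaves the precursors of several cathepsins, averaged 1554 CPM in untreated WT and 1748 in untreated R150X cells, and 2380 and 2292 CPM with OxLDL. The sorting receptor Sort1 rose with OxLDL by 1.34 in WT (adjusted p = 3.40e-14) and by 1.02 in R150X (adjusted p = 3.67e-12). Of the mannose 6-phosphate receptors, Igf2r rose by 0.19 and 0.31, while M6pr fell by 0.25 in R150X (adjusted p = 0.000149) and was at -0.10 in WT (adjusted p = 0.0797). The OxLDL response was lower in R150X for 3 of the 14, Psap at -0.42 (adjusted p = 2.09e-06), Sort1 at -0.32 (adjusted p = 0.0146) and Lgmn at -0.22 (adjusted p = 0.00981).

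Of the 4 MiT/TFE factors, Tfeb was higher in untreated R150X cells by 0.57 (adjusted p = 3.07e-05) and Mitf by 0.25 (adjusted p = 0.00555). OxLDL raised Tfeb by 0.73 in WT (adjusted p = 3.71e-07) and by 0.33 in R150X (adjusted p = 0.00259), and these responses differed by -0.40 (adjusted p = 0.0413). None of the 4 differed between genotypes with OxLDL at adjusted p under 0.05 in edgeR's test, with adjusted p from 0.196 (Tfeb) to 0.986 (Mitf). Of 28 other soluble lysosomal hydrolases, 21 rose and 2 fell with OxLDL in WT, and 19 rose and 1 fell in R150X. Of all genes 22.7% and 18.4% rose, and of those averaging 100 CPM or more 41.8% and 33.3%. Between untreated genotypes 13 were higher and 2 lower in R150X, where 18.1% of all genes and 39.6% of the abundant ones were higher. Their responses were lower in R150X for 8 of 28 and higher for 0, where 5.19% of all genes and 18.1% of those averaging 100 CPM or more were lower. Their median difference was -0.11 against -0.32 for the cathepsins and Cst3. The difference was not particular to lysosomal genes. The 9 macrophage markers had a median of -0.38, with 8 called lower and 0 higher. The 7 genes of the invariant chain and class II group had a median of -1.19, with 5 lower and 0 higher.

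Of the 14 other cathepsin genes in the table, 5 passed the filter on low counts. Cathepsin K (Ctsk), the collagen-degrading protease of osteoclasts, averaged 62.5 CPM in untreated WT and 100.5 CPM in untreated R150X cells, and 71.7 and 98.8 CPM with OxLDL. R150X was higher by 0.68 (adjusted p = 6.14e-08) and by 0.46 with OxLDL (adjusted p = 2.38e-05). Ctso rose with OxLDL by 0.38 in WT (adjusted p = 4.03e-05) and 0.34 in R150X (adjusted p = 0.000172), and was at 0.09 and 0.05 between genotypes. Ctse, Ctsw and the neutrophil granule protease Ctsg averaged at most 1.53 CPM in any group.

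Marker genes of other cells moved with the groups. The 12 fibroblast and stromal genes summed to 15222 to 15405 CPM in untreated WT, 10040 to 10079 in untreated R150X, 6710 to 7350 in OxLDL-treated WT and 5864 to 6172 CPM in OxLDL-treated R150X libraries. Of them 10 were lower and 1 was higher in untreated R150X than in WT, where 14.8% of all genes were lower. The 8 osteoclast markers, Ctsk among them, summed to 569.8 to 580.3, 727 to 737, 859 to 945 and 928 to 992 CPM in the same order of groups. Most of this sum was Atp6v0d2, at 347, 490.2, 737 and 775 CPM. Acp5 went the other way with OxLDL, from 92.5 to 23.6 CPM in WT (log2 change -1.97, adjusted p = 6.24e-16) and from 67.9 to 19.4 CPM in R150X (-1.81, adjusted p = 4.59e-15). Dcstamp fell with OxLDL in R150X (log2 change -1.52, adjusted p = 4.65e-09). The 5 adipocyte markers summed to 0.633 to 0.808 CPM in untreated WT, 3.07 to 4.12 in untreated R150X, 2.32 to 4.15 in OxLDL-treated WT and 38.3 to 43.9 CPM in OxLDL-treated R150X libraries, with Lep at 0 in all of them. The 3 that were tested, Adipoq, Plin1 and Car3, were higher in R150X in both states, as were 18.1% and 6.10% of all genes. The 8 dendritic cell markers summed to at most 17.7 CPM, the 4 B cell markers to 3.83 CPM and the 4 T and NK cell markers to 1.34 CPM. Of the 9 macrophage markers, 7 were lower and 0 higher in R150X than in WT with OxLDL, where 6.92% of all genes were lower. OxLDL raised 4 and lowered 3 of these markers in WT, and raised 3 and lowered 6 in R150X. Of all genes it lowered 23.1% and 20.6%. The part of these cells in the members' differences was not tested.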

How the data were processed

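The authors deposited unnormalised whole-number read counts by Ensembl identifier for 12 libraries. FastQC, HISAT2, featureCounts, DESeq2, mm10 and GRCm38 were named, per the submitters' processing notes. Roles, versions, annotation release and strand setting are not given in the sources used here. Symbols, coordinates and lengths came from GENCODE M21 (GRCm38), which matched 54495 of 54532 identifiers.

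Genes were filtered with edgeR's filterByExpr (15338 tested) and scaled by TMM, with a coefficient per group in edgeR 4.0.16 under R 4.3.3. The common biological coefficient of variation was 0.0608. The fit was tested on simulated data. Lengths were those of a coding transcript with a RefSeq accession and support level 1. All 10 members are named. For likeness, the 3 genes with the highest Pearson correlation of log2 CPM per member were taken. Members and lists were chosen with earlier results of these data known. Alternatives were DESeq2 1.42.0, other scalings, no filter, only the groups compared, a replicate block and leaving out each library. Replicates differed by more than counting noise, and none was counted as a repeat.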

Additional observations from a re-analysis of the deposited data

Results flagged for a closer look

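The OxLDL response differed between genotypes for 8 of the 10 genes, by the test of the difference itself in edgeR with adjustment over all genes. The response of R150X minus that of WT was -0.65 for Ctss, -0.51 for Cst3, -0.39 for Ctsh, -0.36 for Ctsd, -0.34 for Ctsz, -0.30 for Ctsb, -0.24 for Ctsl and -0.21 for Ctsc on the log2 scale. Over all genes tested, 8.32% had such a difference (5.19% lower and 3.13% higher). Among genes averaging 100 CPM or more it was 23.5% (18.1% lower and 5.44% higher). The calls for Ctsl and Ctsc were lost with library size alone, and that for Ctsc also when any of several single libraries was left out. Untreated R150X libraries already held more Ctss, Cst3, Ctsd, Ctsz, Ctsb and Ctsl than untreated WT libraries, and those libraries enter the difference as its baseline.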

How the results depend on the processing

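Of 890 values of the members under alternative settings, 853 kept their direction and their side of the threshold, 22 lost and 10 gained a call, and 5 changed sign. The sign changes were in values never called. Leaving out 1 library gave, for R150X against WT in untreated cells, -0.01 to 0.19 for Ctsf, and with OxLDL -0.01 to 0.03 for Ctsl. It gave -0.03 to 0.06 for the OxLDL response of Ctsh in R150X, which was also -0.01 with library size alone, and -0.06 to 0.14 for the difference between responses of Ctsf. The number of members higher in OxLDL-treated R150X cells ran from 1, without treated WT replicate 2, to 3. The difference between responses was called lower for 7 to 8 members when 1 library was left out, for 6 with library size alone and for 7 with low-count genes kept. For Ctsc it was then -0.12 (adjusted p = 0.230) and -0.20 (adjusted p = 0.100). Library size alone moved the median OxLDL change of all genes in WT from 0.01 to -0.10, and the share of higher calls from 49.6% to 31.6%. The same setting moved that share from 55.0% to 36.1% between untreated genotypes and from 37.6% to 66.5% for the difference between responses. The cause was not tested. Replicate numbers did not pair the libraries, since deviations of same-numbered libraries correlated at -0.042 to 0.162. With a replicate block, 3 members instead of 2 were higher in OxLDL-treated R150X cells and 4 instead of 3 fell with OxLDL in R150X, and the other counts were equal. Depth limited the scarce cystatins, since 3 counts corresponded to 0.158 to 0.209 CPM.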

Other observations

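Beyond Cst3 and Cstb, the cystatin family was scarce in these cells. Of 19 cystatin genes in the table other than Cst3, 6 passed the filter on low counts, Cstb among them. Leukocystatin (Cst7), an inhibitor of cathepsin C activation in immune cells, averaged 3.46 CPM in untreated WT and 4.86 CPM in untreated R150X cells, and 0.754 and 0.508 CPM with OxLDL. It fell with OxLDL, with log2 changes of -2.15 in WT (edgeR adjusted p = 6.48e-05) and -3.26 in R150X (adjusted p = 5.24e-07). The stefin A genes Stfa1 and Stfa3 and the related BC100530, near-identical copies that can share reads, averaged at most 1.41 CPM in any group. Kininogen (Kng1), whose protein carries cystatin domains, averaged 3.70 and 5.84 CPM in untreated WT and R150X cells and 6.69 and 13.7 CPM with OxLDL.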
